A study of Mus musculus with 4 samples.

Results

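The chromatin regions described here are the 294 promoter peaks whose accessibility was lowest in normoxia relative to hypoxia in cultured mesenchymal stem cells (MSCs) of mouse bone, of 9509 promoter peaks that were strong enough to be considered and 128055 peaks in all. Accessibility was read by ATAC-seq, an assay in which a transposase cuts and tags DNA that is not wrapped in nucleosomes, so that reads pile up there. The study kept MSCs at a low oxygen level and asked what a longer exposure to atmospheric oxygen does to their chromatin, metabolism and fate. Cells came from wild-type male C57BL/6N mice of 3 to 5 months and were sorted as CD45-/TER-119-/CD140a+/Sca-1+. After culture in hypoxia (2% O2) they were either kept there or moved to normoxia (21% O2), with 2 libraries in each group and 1 peak set called over both groups. The labels only number the libraries. The study describes them as independent experiments, without naming which animals went into which library, and the cells had been expanded in culture, so they stand for cultured MSCs and not for cells as they lie in bone. Of 10 MSC marker genes 9 had a promoter peak (Lepr had none), against 1 of 6 blood cell genes (Csf1r, at 71.4 to 103), 3 of 4 erythroid genes and 3 of 4 endothelial genes. The erythroid and endothelial peaks were weak, with no value above 59.1. Among the MSC markers Cd44 was strongest, Pdgfra, the gene of CD140a, had 334 and 299 in hypoxia, and Ly6a, the gene of Sca-1, had 64.4 and 82.6, while Eng and Vcam1 were as weak as the erythroid genes.

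The members were chosen on the measured values themselves. A peak was eligible when it lay on an autosome, within 1 kb of the start of a protein-coding transcript and had a mean signal of at least 50 over the 4 libraries. It was selected when the higher of its normoxia values was at most 0.5 times the lower of its hypoxia values. This quotient is called the ratio below, and the fold is the mean of the normoxia values over the mean of the hypoxia values. Signal was taken as the number of reads in a peak per 10000000 reads of the library, not divided by the width of the peak. Because the selection used these values, the lower signal of the 294 promoters in normoxia, and the fact that their groups do not overlap, follow from the rule and were not tested. The 294 peaks carried 327 genes, with 1 gene at 262 peaks and several at 32, and 6 genes (Alas1, Creb5, Hist1h3c, Nr4a2, Platr25 and Tnn) had 2 such peaks each.

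A promoter is the stretch of DNA at which RNA polymerase II is loaded to begin a transcript. Most promoters of widely used genes lie in CpG islands and are open in nearly every cell, while promoters of inducible or tissue-restricted genes tend to be poor in CpG and open with the factors that bind them. Bone marrow is low in oxygen, and MSCs in it are the source of osteoblasts, adipocytes and stromal cells. Accessibility at a promoter permits transcription but does not measure it, and no RNA level was read in these libraries.

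The sequences of 7 selected promoters are shown to let a reader see how unlike they are, from a CpG-poor to a CpG-rich start and from promoters of tissue-restricted genes to those used by most cells. They are among the first by ratio whose window, from 250 bases before to 50 bases after the start site, lay wholly inside the peak. Capitals mark matches to the motifs searched, on either strand, which are spelled out further on. The sequences were read from GRCm38 (mm10) in the direction of transcription, at chr14:50955742-50956041, plus strand (Pnp2), chr12:119238753-119239052, minus strand (Itgb8), chr7:109439032-109439331, minus strand (Stk33), chr13:104816927-104817226, plus strand (Srek1ip1), chr6:15720411-15720710, plus strand (Mdfic), chr13:118387203-118387502, minus strand (Mrps30) and chr8:72318783-72319082, plus strand (Klf2).
Pnp2: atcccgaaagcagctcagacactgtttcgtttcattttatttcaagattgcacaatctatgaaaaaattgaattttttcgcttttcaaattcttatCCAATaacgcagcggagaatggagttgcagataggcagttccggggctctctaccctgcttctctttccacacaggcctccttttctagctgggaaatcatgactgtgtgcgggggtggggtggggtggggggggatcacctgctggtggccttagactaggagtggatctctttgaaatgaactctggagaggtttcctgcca
Itgb8: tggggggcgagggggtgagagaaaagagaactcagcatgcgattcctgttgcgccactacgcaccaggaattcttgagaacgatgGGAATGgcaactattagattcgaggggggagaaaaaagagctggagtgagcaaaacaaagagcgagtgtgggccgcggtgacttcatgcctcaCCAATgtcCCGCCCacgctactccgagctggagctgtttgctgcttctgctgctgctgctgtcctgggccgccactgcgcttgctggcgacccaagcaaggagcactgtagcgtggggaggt
Stk33: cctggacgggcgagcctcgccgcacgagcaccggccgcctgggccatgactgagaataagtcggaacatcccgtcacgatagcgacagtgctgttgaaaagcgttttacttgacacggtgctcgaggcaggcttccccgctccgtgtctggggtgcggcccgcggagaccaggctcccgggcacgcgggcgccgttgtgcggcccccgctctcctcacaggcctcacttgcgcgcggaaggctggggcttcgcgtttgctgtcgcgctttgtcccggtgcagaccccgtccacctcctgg
Srek1ip1: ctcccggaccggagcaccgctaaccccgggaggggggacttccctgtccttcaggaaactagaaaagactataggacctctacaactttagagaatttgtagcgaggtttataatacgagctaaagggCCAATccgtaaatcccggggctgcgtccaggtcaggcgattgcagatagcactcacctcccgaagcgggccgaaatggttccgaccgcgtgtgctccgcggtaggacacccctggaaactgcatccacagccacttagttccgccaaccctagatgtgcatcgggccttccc
Mdfic: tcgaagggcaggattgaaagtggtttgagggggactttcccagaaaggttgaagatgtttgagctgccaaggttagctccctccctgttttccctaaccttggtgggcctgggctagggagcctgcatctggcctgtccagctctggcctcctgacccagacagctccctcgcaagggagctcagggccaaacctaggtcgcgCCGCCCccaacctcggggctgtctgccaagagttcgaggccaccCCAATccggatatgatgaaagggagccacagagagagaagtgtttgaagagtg
Mrps30: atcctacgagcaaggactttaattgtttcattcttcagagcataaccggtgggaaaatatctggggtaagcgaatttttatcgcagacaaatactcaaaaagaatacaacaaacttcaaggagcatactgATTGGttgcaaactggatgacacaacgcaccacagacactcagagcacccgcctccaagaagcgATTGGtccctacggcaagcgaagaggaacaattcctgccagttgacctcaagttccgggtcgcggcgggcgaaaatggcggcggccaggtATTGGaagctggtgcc
Klf2: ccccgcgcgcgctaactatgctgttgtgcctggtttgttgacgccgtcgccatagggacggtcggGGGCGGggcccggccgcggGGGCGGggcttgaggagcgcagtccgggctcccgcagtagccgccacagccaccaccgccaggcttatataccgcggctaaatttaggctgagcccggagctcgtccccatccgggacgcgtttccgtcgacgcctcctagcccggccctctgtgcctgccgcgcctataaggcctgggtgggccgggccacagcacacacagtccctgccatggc
The number of CpG in these windows was 7 at Pnp2, 8 at Mdfic, 16 at both Itgb8 and Mrps30, 20 at Srek1ip1, 33 at Klf2 and 35 at Stk33. Stk33 held none of the motifs, while Mrps30 held 3 CCAAT boxes and Klf2 held 2 matches to the Sp and KLF string.

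Lower signal in normoxia was the rule among promoters and not particular to the selected ones. Of the 9509 eligible promoters 9420 (99.1%) had both normoxia values below both hypoxia values, and the median fold over all of them was 0.569, against 0.429 in the 294 (from 0.215 to 0.494). In the libraries hypoxia 1, hypoxia 2, normoxia 1 and normoxia 2 the median signal was 155.0, 156, 62.6 and 71.4 in the selected promoters and 142, 148, 76.1 and 88.4 in all eligible ones. The medians of the selected promoters were thus somewhat higher in hypoxia and lower in normoxia, and a rule on these same values favours both. All 294 were called lower in normoxia by limma after scaling with relative log expression (RLE) size factors, at a false discovery rate (FDR) under 0.01, as were 4.57% of all peaks and 27.3% of eligible promoters, and nothing is read from that count because the rule used the same contrast. With cyclic loess 138 of them were called lower, among 1681 such peaks of all 128055. Fits that leave out a library are given at the end. The rule took 3.09% of eligible promoters. The same ratio was met by 5.85% of all peaks, but no minimum signal was set for these, so the shares are not alike.

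**Figure D1:**
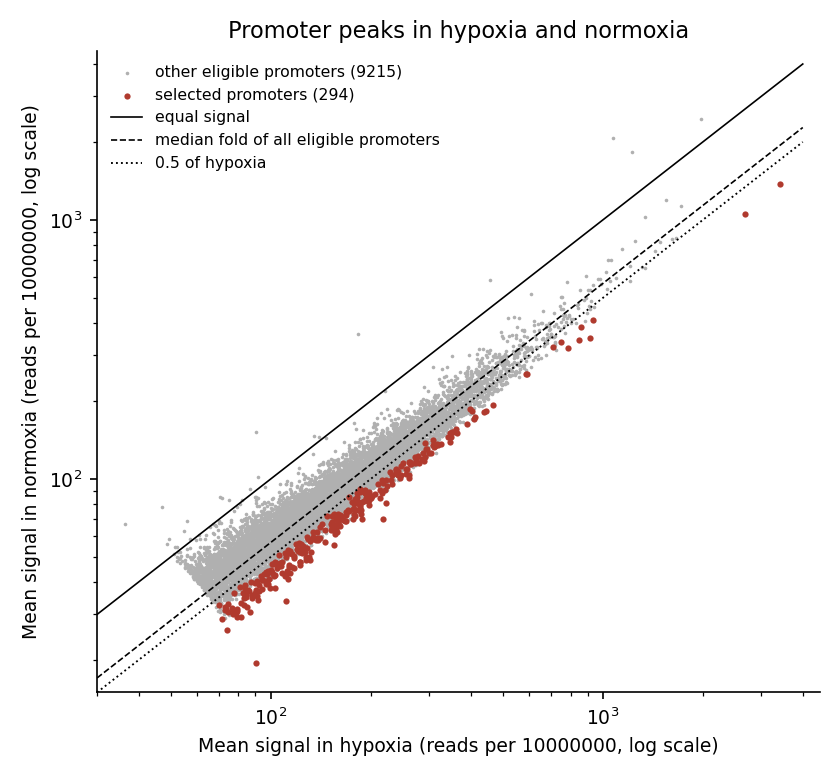
Mean signal of each eligible promoter peak in hypoxia (x axis) and normoxia (y axis), both in reads per 10000000 on log scales, each from 2 libraries. The 294 selected promoters (red) lie along the lower edge of a cloud that itself runs below the line of equal signal, at a median fold of 0.569 (dashed).

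The libraries differed in ways that move with the oxygen level. Reads in nuclear peaks made up 49.2% and 53.2% of the hypoxia libraries and 31.04% and 35.2% of the normoxia libraries, and mitochondrial reads 7.77% and 9.13% against 1.497% and 2.34%. These shares enter every value as deposited, and their part in the lower signal was not tested. A smaller share of cells with an open promoter and a promoter less open in every cell cannot be told apart in such libraries. When libraries were scaled by RLE size factors, the median ratio was 0.641 in the selected and 0.869 in the eligible promoters. The highest ratio among the 294 was then 0.742, and 3 (Hist1h3c, Pnp2 and Itgb8) still met the ratio of 0.5. With equal totals over nuclear peaks the medians were 0.713 and 0.959, the highest of the 294 was 0.839, and 2 met 0.5. All 294 stayed below 1 under both scalings. This is no test, since neither scaling could carry a ratio of 0.5 up to 1. If instead the 294 eligible promoters with the lowest ratio were taken after each scaling, 219 and 206 of them were the promoters described here. The size of each fall given below is therefore that of the deposited scale.

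**Figure D2:**
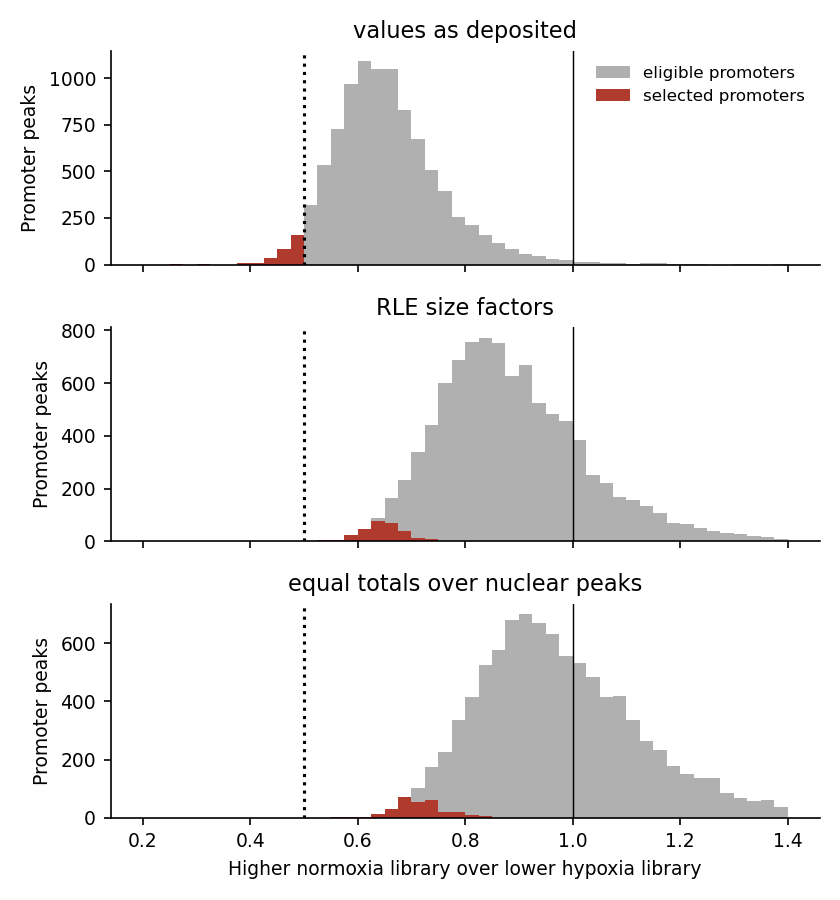
Number of promoter peaks (y axis) by the ratio of the higher normoxia to the lower hypoxia library (x axis), for the values as deposited, after RLE scaling and with equal totals over nuclear peaks, with the limit of 0.5 dotted and 1 as a solid line. The 294 selected promoters (red) remained at the low end of all eligible promoters (grey) under both scalings, with medians of 0.641 and 0.713, but few lay below 0.5. A small number of promoters beyond the right end of the axis are not drawn.

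The selected promoters were crowded at the limit. Only 1 had a ratio of at most 0.3, 7 lay above that and up to 0.4, 41 up to 0.45, 85 up to 0.475 and 160 between 0.475 and 0.5. The last ones inside were Cav1, which codes for the coat protein of caveolae (ratio 0.499761), Rarg, a retinoic acid receptor, and Ifitm3, an interferon-induced membrane protein (both 0.499925). The first outside were the shared promoter of Pno1 and Wdr92 (0.500024), Entpd2 (0.500032) and the shared promoter of Fbxl12 and Ubl5 (0.500419). Replicates were close in hypoxia, where the median difference between libraries was 1.05-fold and 14 promoters differed by more than 1.2-fold. They were less close in normoxia, at 1.14-fold with 96 promoters above 1.2-fold, and normoxia 2 was the higher library in 265 of the 294. The same held in all eligible promoters, with medians of 1.08-fold and 1.18-fold.

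The lowest ratio belonged to a peak next to Hist1h3c, a gene of the core histone H3 in the large histone cluster of chromosome 13. This 2800-bp peak (chr13:23742501-23745300) had hypoxia values of 81.4 and 99.6 and normoxia values of 17.6 and 21.4, a fold of 0.215. It stood apart from the rest, was the only eligible promoter peak that the caller had assigned to hypoxia alone, and began 302 bp downstream of the start site, so that it does not cover that start. The second peak of Hist1h3c, which it shares with Hist1h2bb, covers the start and had hypoxia values of 169.5 and 196 and normoxia values of 83.6 and 79.4, close to the limit.

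Pnp2, a tandem copy of the purine nucleoside phosphorylase gene that works in purine salvage, came second with hypoxia values of 110.1 and 113 and normoxia values of 31.9 and 35.7. Reads of Pnp2 may also come from its near-identical neighbour, so its value is uncertain. Itgb8 followed, with hypoxia values of 205 and 233 and normoxia values of 63.0 and 77.8, and codes for integrin beta 8, which with integrin alpha V releases active TGF-beta from its latent complex. These 3 were the ones that kept a ratio of at most 0.5 after RLE scaling. In each of them the higher normoxia library was well below the lower hypoxia library, as the rule demands.

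Several of the lowest ratios were at genes best known from other tissues. Gucy2e, the guanylate cyclase of photoreceptors, had hypoxia values of 74.7 and 73.4 and normoxia values of 24.4 and 28.0. Bdnf, a neurotrophin that signals through TrkB, had hypoxia values of 149 and 162 and normoxia values of 54.0 and 57.1, and Duoxa1, which is needed to mature the hydrogen peroxide-producing dual oxidase, had hypoxia values of 125 and 138 and normoxia values of 47.2 and 49.7. Il2rb, the beta chain of the receptors for IL-2 and IL-15, had hypoxia values of 97.0 and 108 and normoxia values of 37.1 and 38.7. All these levels were modest, below the median of eligible promoters in hypoxia except for Bdnf. The Gucy2e and Bdnf peaks began 522 and 69 bp downstream of the nearest start site, and Bdnf has further promoters, of which the other eligible one went from 213 and 244 to 100.1 and 119, a ratio of 0.559 that is outside the selection.

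Next in order came a kinase gene and genes of splicing and heme synthesis. The kinase gene Stk33 had hypoxia values of 78.6 and 84.7 and normoxia values of 27.4 and 31.4. The promoter shared by Cwc27, a cyclophilin of the spliceosome, and Srek1ip1, which binds a splicing regulator, had hypoxia values of 117 and 103 and normoxia values of 42.0 and 42.4. Alas1, the rate-limiting enzyme of heme synthesis in mitochondria, had hypoxia values of 81.7 and 76.5 and normoxia values of 31.5 and 27.0 at a peak 847 bp from the start site, and hypoxia values of 109 and 103 and normoxia values of 45.7 and 47.4 at the peak over it. Of the Alas1 peaks the distal one had the lower fold, 0.370 against 0.441.

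Mdfic, a regulator of transcription related to the inhibitor of MyoD, had hypoxia values of 117 and 108 and normoxia values of 37.5 and 44.4. The promoter of Mrps30, a protein of the mitochondrial ribosome, and of B430218F22Rik on the other side had hypoxia values of 122 and 122 and normoxia values of 42.4 and 50.7. A4galt, which makes the glycolipid globotriaosylceramide, had hypoxia values of 128 and 127 and normoxia values of 43.1 and 54.1. In each case the hypoxia libraries were within 1.2-fold of each other.

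Further promoters among the 20 lowest ratios were those of transporters and nuclear proteins. Slco2a1, the prostaglandin transporter, had hypoxia values of 97.0 and 96.6 and normoxia values of 37.9 and 41.0, and Slc43a1, a transporter of neutral amino acids, had hypoxia values of 111 and 112 and normoxia values of 37.5 and 47.7. Frg1, an RNA-associated nuclear protein, had hypoxia values of 84.6 and 81.3 and normoxia values of 30.7 and 34.7. Ino80c, a subunit of the INO80 chromatin remodeller, had hypoxia values of 127 and 127 and normoxia values of 50.2 and 54.4, and Lmo4, a LIM-domain cofactor of transcription, had hypoxia values of 176 and 194 and normoxia values of 74.96 and 75.4. The Lmo4 normoxia libraries agreed almost exactly, while those of Slc43a1 were the farthest apart of this group.

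**Figure D3:**
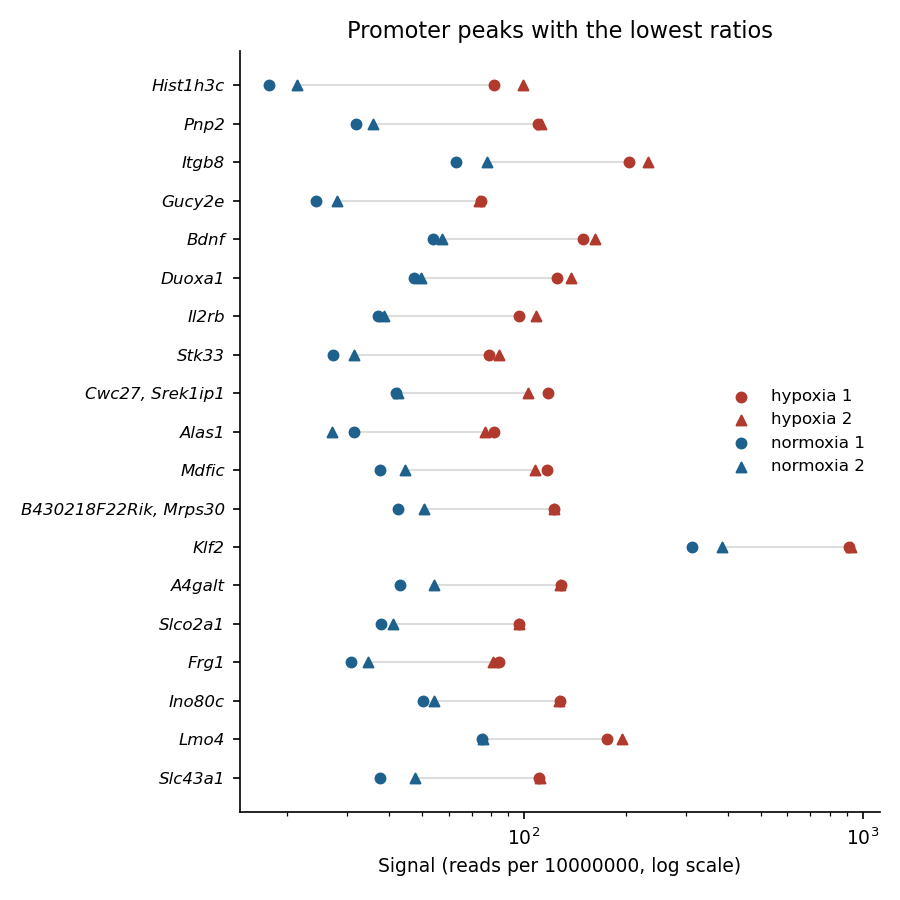
Signal in reads per 10000000 (x axis, log scale) in each of the 4 libraries for selected promoters among the 20 with the lowest ratio, ordered from the lowest at the top, with a grey line over the gap between groups. Klf2 was far stronger than the others, and Hist1h3c shows the widest gap, from 17.6 and 21.4 in normoxia to 81.4 and 99.6 in hypoxia.

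The largest absolute falls were at strong and mostly broad promoter regions. Thbs1, which codes for thrombospondin 1, a matrix glycoprotein that activates latent TGF-beta, had hypoxia values of 2979.9 and 3851 and normoxia values of 1320.0 and 1444 over 24400 bp (chr2:118108501-118132900). It was the strongest of all selected promoters. At Thbs1 the hypoxia libraries differed more than at most selected promoters.

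Klf2, a zinc-finger transcription factor known from endothelial cells under flow, had hypoxia values of 911 and 922 and normoxia values of 314 and 385. Emp1, a tetraspan membrane protein, had hypoxia values of 913 and 961 and normoxia values of 391 and 433, and H3f3b, a gene for the replication-independent histone variant H3.3, had hypoxia values of 737 and 832 and normoxia values of 304 and 338. The single region over S100a4, S100a5 and S100a6, which code for calcium-binding proteins, had hypoxia values of 707 and 705 and normoxia values of 298 and 347. The signal of such a region cannot be divided among its genes.

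Tnks1bp1, a protein that binds tankyrase, had hypoxia values of 801 and 894 and normoxia values of 296 and 393. The region of Tnfrsf12a, the receptor of the cytokine TWEAK, also covers Bicdl2, Hcfc1r1 and Thoc6 and had hypoxia values of 735 and 761 and normoxia values of 314 and 364. The promoter of Aasdhppt, which attaches the prosthetic group of acyl carrier proteins, and of Kbtbd3 had hypoxia values of 602 and 583 and normoxia values of 218 and 289. Here the normoxia libraries lay farther apart than the hypoxia libraries. Strong, wide peaks were nevertheless not typical of the selection, since 8 of the 294 (2.72%) were 10 kb or wider, against 4.28% of eligible promoters.

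The selected promoters were then read by gene list. Of 25 lists of genes of MSC function, stress and housekeeping, 12 held at least 1 selected promoter and 13 held none, against a background of 3.09% of eligible promoters. A single hit in a list of this size is near that background, and no list was tested. The highest share was that of the immediate-early transcription factors, the genes that cells switch on within minutes of a stimulus, with 4 of 30 eligible peaks (13.3%) and a median log2 ratio of means of -0.92 in the whole list against -0.81 in all eligible promoters. They were Klf2 (given above), Jund and both promoters of Nr4a2.

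Jund, an AP-1 subunit, shares its region with Iqcn and had hypoxia values of 861 and 858 and normoxia values of 353 and 420.1. Nr4a2, an orphan nuclear receptor, had hypoxia values of 180.5 and 193 and normoxia values of 67.8 and 83.8 at one promoter and hypoxia values of 416 and 471 and normoxia values of 164 and 204 at the other. The Nr4a2 promoters had ratios of 0.464 and 0.490 that lay above that of Klf2 (0.423). The unselected peaks of the list were also lower in normoxia without overlap, as were 99.1% of all eligible promoters. Just outside the limit were Fos, Egr1 and Atf3, whose ratios were 0.522, 0.533 and 0.536, while Nr4a1, from the same family as Nr4a2, had ratios of 0.735 and 0.941.

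Cell cycle genes had 2 of 25 (8.0%). Cdkn2a, the locus of the inhibitors p16 and p19ARF, had hypoxia values of 67.9 and 90.4 and normoxia values of 30.4 and 31.4 at one of its promoters. Ccnd2, a D-type cyclin, had hypoxia values of 234 and 244 and normoxia values of 102 and 116. The hypoxia libraries of Cdkn2a were farther apart than those of most members, and its other eligible promoter had a ratio of 0.557.

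Receptor tyrosine kinase and growth factor genes had 2 of 32 (6.25%). Dusp6, a phosphatase that switches off ERK, had hypoxia values of 361 and 334 and normoxia values of 150.3 and 151, with almost equal normoxia libraries. Sos1, the exchange factor that activates Ras below these receptors, had hypoxia values of 97.7 and 93.2 and normoxia values of 44.6 and 41.4. Both libraries of each group were close in both genes.

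In further lists a single promoter was selected. Yap1, the effector of the Hippo pathway, had hypoxia values of 209 and 225 and normoxia values of 98.2 and 100.1. The promoter was near the limit of the rule, and the median log2 ratio of the YAP and TEAD list was -0.74. Elovl6, an enzyme that lengthens saturated fatty acids, had hypoxia values of 345 and 379 and normoxia values of 139 and 172. Kat2b, the histone acetyltransferase PCAF, had hypoxia values of 258 and 269 and normoxia values of 101.2 and 128, and Birc3, an inhibitor of apoptosis induced by NF-kB, had hypoxia values of 133 and 144 and normoxia values of 54.3 and 64.4. For Srsf11, a splicing factor that shares a promoter with Lrrc40, there were hypoxia values of 156 and 159 and normoxia values of 63.0 and 76.8. Cav1, a member of the integrin and focal adhesion list, had hypoxia values of 182 and 201 and normoxia values of 91.1 and 90.8. Among these genes its normoxia libraries were the closest to its hypoxia libraries, as its place at the limit implies.

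The lists without a selected promoter were actin and SRF target genes (28 eligible peaks), BMP and TGF-beta signalling (26), Wnt signalling (25), Notch signalling (14), Hox genes (9), glycolysis and hypoxia response (29), cytosolic ribosomal proteins (25), oxidative phosphorylation (20), ubiquitin and proteasome (26), heat shock and unfolded protein genes (23), circadian clock (17), adipogenic genes (12) and membrane traffic (25). Their median log2 ratios ran from -0.68 in actin and SRF target genes to -0.87 in Notch signalling. The glycolysis and hypoxia response genes, many of them direct targets of the hypoxia-inducible factors, had a median of -0.83, next to that of all eligible promoters. Their lowest ratios were at Pfkp (0.535), a phosphofructokinase, and Ankrd37 (0.574). Being absent from the selection does not show that these promoters behaved differently, since most eligible promoters were outside it.

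Families of genes that share the start of their symbol were counted in the same way. Of 26 eligible peaks at replication-dependent histone genes, whose symbols begin with Hist, 7 were selected (26.9%), and the median of the family was -1.04. Of 280 peaks at zinc-finger genes named Zfp, many of them KRAB repressors, 16 were selected (5.71%), with a median of -0.90. The collagens had 3 of 22 (Col11a1, Col2a1 and Col5a3), although the median of that family, -0.78, was a smaller fall than the -0.81 of all eligible promoters. The integrins had 2 of 15 (Itgb8 and Itga2b) with a median of -0.99, and the mitochondrial ribosomal proteins 3 of 53 (Mrpl15, Mrps17 and Mrps30) with a median of -0.84. Of 71 cytosolic ribosomal protein peaks and 35 peaks of complex I genes (Nduf) 0 were selected, with medians of -0.80 and -0.84. Solute carriers had 5 of 165, Tmem genes 2 of 138 and Rab genes 1 of 55. At a background of 3.09% only a few selected peaks would fall in families of such sizes. These counts are therefore not read as differences, and no family was tested.

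**Figure D4:**
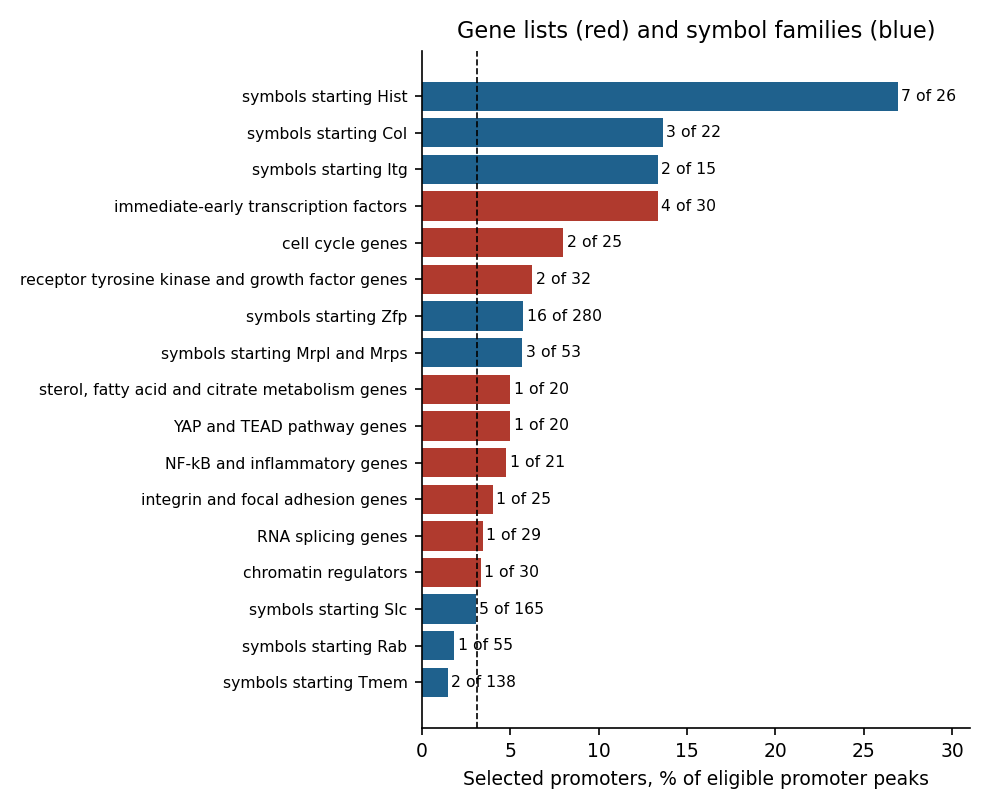
Share of eligible promoter peaks that were selected (x axis, %) in gene lists (red) and symbol families (blue) with at least 1, not all of which are drawn, with the numbers beside the bars and the background of 3.09% dashed. Histone genes had 7 of 26 and immediate-early factors 4 of 30, while most of the lists drawn hold 1 selected promoter each.

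The histone promoters lay together on chromosome 13, which had the highest share of selected promoters of any autosome (26 of 382, 6.81%). At chr13:21715901-21781800, 3 of the 4 eligible peaks were selected. The peak of Hist1h2ai, Hist1h2bl and Hist1h3h had hypoxia values of 144 and 147 and normoxia values of 49.8 and 64.7. The peak of Hist1h2ak and Hist1h2bn had hypoxia values of 113 and 142 and normoxia values of 50.6 and 49.1, and that of the linker histone gene Hist1h1b had hypoxia values of 178 and 187 and normoxia values of 79.8 and 84.1. In all of them the groups were apart, as the rule demands. At chr13:23742501-23764300 all 3 were selected, both Hist1h3c peaks and the one over Hist1h1a, Hist1h3a and Hist1h4a with hypoxia values of 258 and 267 and normoxia values of 110.2 and 123. The seventh, at Hist1h2ag, Hist1h2bj and Hist1h4i, had hypoxia values of 234 and 243 and normoxia values of 107 and 109. Histone genes of a type are near-identical copies, and so are many Zfp genes, so how the reads were shared among copies is uncertain.

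Such neighbours were few elsewhere. Of the 294 promoters 28 (9.52%) had another selected promoter within 100 kb, against 5.01% of the other eligible promoters that had a selected one that near. The 28 include the histone peaks of the chromosome 13 runs and the paired peaks of single genes, so the shares are not read as a difference. Pairs were found at Zfp58 and Zfp748, Zscan18 and Zfp110, Zfp57 and Gabbr1, Fhl3 and Sf3a3, Rnf6 and Cdk8, Lrrn4cl and Ubxn1, and Ndrg2 and Arhgef40, besides the 2 promoters of Nr4a2, Alas1, Tnn and Platr25. Peaks away from any promoter but within 10 kb of a selected one (284 peaks with a mean signal of at least 10) had a median fold of 0.648, against 0.715 for the 7903 peaks that near other eligible promoters. The ratio of 0.5 was met by 7.04% of the former and 3.19% of the latter. The genes of selected promoters had 22 further eligible promoters that were not selected, and their median ratio was 0.614, from 0.517 at Bcl3 to 1.15 at Deptor.

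The following members were picked after their values were seen, to show functions outside the lists. Among genes of cartilage and bone matrix, Col2a1, the main collagen of cartilage, had hypoxia values of 229.7 and 217 and normoxia values of 86.2 and 101.5, and Col11a1, which joins it in the same fibrils, had hypoxia values of 182 and 212 and normoxia values of 81.3 and 83.8. Vcan, the large proteoglycan versican, had hypoxia values of 347 and 382 and normoxia values of 147 and 154, and Xylt1, which starts the sugar chains of proteoglycans, had hypoxia values of 308 and 315 and normoxia values of 132 and 137. Panx3, a pannexin channel of osteoblasts and chondrocytes, had hypoxia values of 201 and 244 and normoxia values of 71.2 and 90.1. Of these Panx3 had the lowest fold, at 0.362.

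In metabolism, Phgdh, which opens the pathway of serine synthesis, had hypoxia values of 151 and 172 and normoxia values of 72.7 and 72.4, and Psat1, the next enzyme of that pathway, had hypoxia values of 398 and 423 and normoxia values of 161 and 179.9. Gls2, a mitochondrial glutaminase, had hypoxia values of 101.2 and 105 and normoxia values of 41.2 and 43.7. Gbe1, which branches glycogen, had hypoxia values of 259.7 and 262 and normoxia values of 93.0 and 115, and Pygl, which breaks it down, had hypoxia values of 110.1 and 116 and normoxia values of 50.2 and 53.7. Of these the Psat1 promoter was the strongest and Gls2 had the lowest hypoxia values.

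Among genes of stress defence, Cat, which codes for catalase, had hypoxia values of 189.7 and 186 and normoxia values of 87.7 and 91.8, and Mt2, a metallothionein, had hypoxia values of 209 and 235 and normoxia values of 95.9 and 102. Dnajb9, a chaperone of the endoplasmic reticulum, had hypoxia values of 392 and 386 and normoxia values of 145 and 182. Cited2, which competes with HIF-1 alpha for its coactivator, had hypoxia values of 202 and 219 and normoxia values of 93.0 and 97.8, and Eloc, elongin C of the ubiquitin ligase that degrades HIF alpha subunits, had hypoxia values of 279 and 291 and normoxia values of 109 and 130.2. The latter pair belong to the control of the hypoxic response, although the list of that pathway held no selected promoter.

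Among regulators of chromatin and fate, Bmi1, a subunit of the Polycomb complex that represses Cdkn2a, had hypoxia values of 188 and 184 and normoxia values of 76.5 and 82.1. Pax9, a paired-box factor of skeletal patterning, had hypoxia values of 293 and 292 and normoxia values of 98.9 and 145. Wls, needed to secrete Wnt proteins, had hypoxia values of 177 and 198 and normoxia values of 63.0 and 83.4. Creb5, a bZIP factor, had both its peaks selected, with hypoxia values of 117 and 131 and normoxia values of 55.8 and 55.7 at one and hypoxia values of 153 and 158 and normoxia values of 74.6 and 71.7 at the other. The normoxia libraries of Creb5 were close at both peaks, whereas those of Pax9 were the most unequal of the members whose values are given here.

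The selected promoters were poorer in CpG than promoters in general. Their 300-base windows held a median of 17 CpG against 21 in all eligible promoters, and 81 of them (27.6%) had fewer than 10, against 16.4%. By quintile of CpG number the share selected was 4.68%, 3.73%, 2.37%, 2.16% and 2.52% from the poorest to the richest. The median log2 ratio of these quintiles did not follow that order, at -0.79, -0.82, -0.81, -0.82 and -0.83. The poorest quintile as a whole thus fell least, and its higher share concerns only its lowest ratios. The share selected also dropped with peak width, from 4.42% in the narrowest to 1.52% in the widest quintile. The median width was 2700 bp against 3100 bp. Mean signal (median 111 against 114), GC content of the peak (51.7% against 52.0%) and repeat content (13.0% against 13.1%) were near those of eligible promoters. The start site lay inside the peak in 96.3% of the selected and 98.5% of the eligible promoters. These shares are descriptions of a selection made on the signal and were not tested.

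Motifs were searched in the same windows, on both strands, as the strings TGANTCA (AP-1), TGACGTCA (cAMP response element), ACGTG (core of the hypoxia response element), CCAAT (bound by NF-Y), GGGCGG (Sp and KLF factors), CCGGAAG (ETS factors), GGAATG (TEAD), GCGCANGCG (NRF1) and the CArG box of SRF. Each was counted on its own, overlaps included. The AP-1 string was found in 24 of 294 selected windows (8.16%) and in 4.74% of eligible ones, and the cAMP response element in 18 (6.12%) and 3.69%. Some windows reached beyond their peak. Among those wholly inside it the AP-1 shares were 6.96% and 4.73%, and those of the cAMP response element 6.59% and 3.76%. Strings typical of CpG-rich housekeeping promoters were less frequent among the selected ones, with 57.1% against 66.7% for Sp and KLF, 9.18% against 16.7% for ETS and 8.50% against 13.1% for NRF1. The core of the hypoxia response element was in 20.7% against 25.7%, CCAAT in 38.1% against 39.0%, the TEAD string in 11.6% against 12.1% and the CArG box in 0.680% against 1.29%. Held apart by CpG number, a split chosen after the data were seen, AP-1 strings were in 19.8% of selected and 10.3% of eligible windows with fewer than 10 CpG, but in 3.76% and 3.65% of the others. The cAMP response element was in 3 of 81 selected windows with fewer than 10 CpG (3.70%), against 1.47% of eligible ones. In the others it was in 15 of 213 (7.04%) against 4.13%. The share of 3.70% rests on few windows, so the classes are not read as alike.

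Promoters with an AP-1 string included those of Bdnf, Alas1, A4galt, Mt2, Kat2b, Hist1h1b and Creb5 (both peaks). Windows were placed by the start site, so that of Bdnf lay outside its peak. Both Alas1 peaks had the same window, which was counted for each and lay outside the distal peak. Those with a cAMP response element included one of Nr4a2, those of Jund, Gem, Flt1 and Gabbr1, and one of Creb5, which held both strings. Across all eligible promoters whose window lay wholly in the peak the median log2 ratio was -0.81 both with and without an AP-1 string, and -0.84 with and -0.81 without a cAMP response element. By CpG number the AP-1 values ran opposite ways, at -0.76 with and -0.78 without the string in windows with fewer than 10 CpG and -0.85 with and -0.82 without it in the others. A string in a window is not a bound site, and none of these shares was tested.

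**Figure D5:**
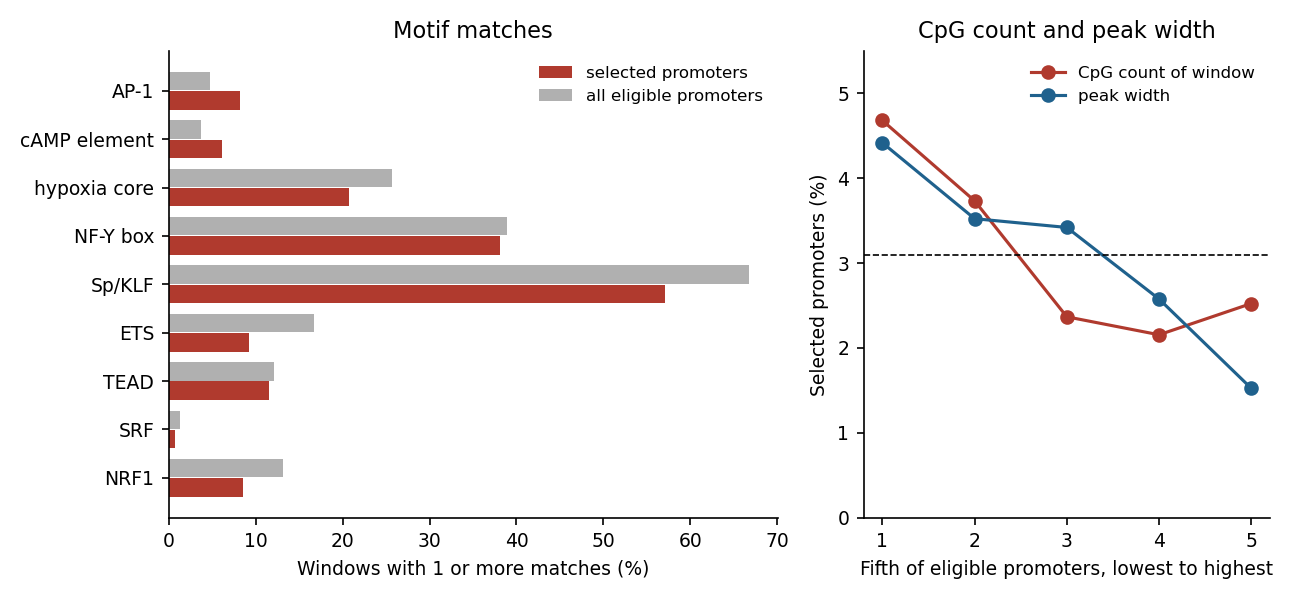
Left, share of promoter windows (x axis, %) with at least 1 match to each motif in the 294 selected (red) and 9509 eligible promoters (grey). Right, share of promoters selected (y axis, %) by quintile of CpG number (red) and of peak width (blue), lowest to highest, with 3.09% dashed. AP-1 and cAMP element matches were more frequent among the selected promoters, and ETS, NRF1 and Sp/KLF matches less frequent. The narrowest and the CpG-poorest quintiles had the largest share selected, although the CpG-poorest one as a whole had the smallest median fall.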

How the data were processed

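The authors aligned reads to mm10 with bowtie2, removed duplicates with Picard, and called peaks and their values with chromstaR. The deposited signal per peak and library, called RPKM by the authors, was not divided by width. All values (100%, tolerance 0.01) were whole multiples of the smallest value of their library, which was taken as 1 read. The scale of 10000000 reads per library was assumed, and whole multiples cannot settle it. On that scale the library totals were 28259470, 29413803, 26680936 and 29965523 reads (hypoxia 1, hypoxia 2, normoxia 1, normoxia 2). No binomial interval was computed, since whether the reads are fragments or positions is not known. All columns were mapped to samples.

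Start sites were those of protein-coding genes in the basic GENCODE M21 set. Sequences and positions are GRCm38, the build of the files. limma 3.58.1 in R 4.3.3 (trend, robust, two-sided) was fitted to log2(signal + 1) after RLE scaling over all 128055 peaks, with Benjamini-Hochberg adjustment and an FDR limit of 0.01, and tested on simulated data. Folds on the log2(signal + 1) scale understate changes of low peaks. edgeR 4.0.16 on the recovered reads was an alternative. The same-numbered libraries were not treated as paired (correlation of deviations 0.0103). According to the paper, sorted cells were divided between the oxygen levels, so a shared isolate is possible, and the correlation cannot settle it.

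The named genes were the 20 lowest ratios, the 10 largest falls, up to 4 of the highest mean in each list, and the 3 peaks on each side of the limit. The members and lists were chosen with earlier results of these data known. Alternatives were other scalings, pseudocounts, filters, start-site rules and leaving out each library. Some genes and lists that the rule for named genes covers are not reported here.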

Additional observations from a re-analysis of the deposited data

How the results depend on the processing

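The number of selected promoters, 294, depended on scaling and on the form of the rule. It was 3 with RLE size factors, 2 with equal totals over nuclear peaks, and 1714 when group means took the place of the higher and lower library. It was 359 with a minimum mean of 20, 283 with the start site inside the peak, and 263 with gene starts alone. With the full transcript set, chosen once the data had been seen, it was 302, and the 8 extra peaks include one at Tex14 with a ratio of 0.139. Leaving out each library in turn gave from 361 to 3107. Without normoxia replicate 2 it was 3107, and without normoxia replicate 1 it was 361. Without hypoxia replicate 1 it was 837, and without hypoxia replicate 2 it was 385. The ratio of a peak cannot rise when a library is left out. Normoxia 2 was the higher normoxia library in 8416 of the 9509 eligible promoters. What sets these counts apart was not tested.

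With limma 5856 peaks were called lower and 2262 higher in normoxia. As deposited the counts were 30729 and 501, and with cyclic loess 1681 were lower, while 138 of the 294 selected promoters were called. With the replicate block 8468 peaks were lower and 3912 higher. The labels do not say whether equal numbers mark libraries of the same cell isolate. Leaving out each library gave from 0 to 8137 lower, from 0 to 1547 higher and from 0 to 289 selected promoters. The counts were 0, 0 and 0 without hypoxia replicate 1 and again without hypoxia replicate 2, where 13787 and 13313 peaks were lower and 10332 and 10981 higher by limma's unadjusted p at 0.05, all 294 selected promoters being among the lower ones each time. The lone hypoxia library is then assumed to vary like the normoxia libraries. Without normoxia replicate 1, 1455 were higher. What causes these shifts in the counts was not tested. With edgeR on recovered reads 7296 were lower and 3257 higher, and all 294 were called. For the 44 named peaks the log2 ratio was below 0 in all 264 values from the RLE and equal-total scalings and from leaving out each library. This is no test, since the rule fixed the sign and the scaling factors were too close together to reverse it. The median over these peaks was -1.30 as deposited, -0.82 after RLE scaling and -0.67 with equal totals.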
